A study of Rattus norvegicus with 6 samples.

Results

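CC chemokines are small secreted proteins that draw leukocytes along a gradient by binding G protein-coupled receptors on those cells. Ccl2 and Ccl7 act mainly on monocytes through Ccr2, while Ccl3, Ccl4 and Ccl5 act on monocytes, macrophages and T cells. Ccl6 is a rodent chemokine that binds Ccr1 in the mouse, and Ccl20 is the chemokine ligand of Ccr6, a receptor of dendritic cells and of T and B lymphocytes. Marrow stromal cells and macrophages both make such chemokines when inflammatory cytokines or bacterial products reach them.

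The 7 genes described here, Ccl2, Ccl3, Ccl4, Ccl5, Ccl6, Ccl7 and Ccl20, were taken by gene name from the array's own annotation, with every probe that carries the name. They have 9 probes of the 45598 on the array, and they are 7 of the 19616 genes in the test. The RNA came from primary rat bone marrow stromal cells (rBMSCs), isolated from tibia marrow and kept for 7 days on titanium whose surface was modified with tantalum (Ta, 3 arrays) or on simple titanium (Ti, 3 arrays). Neither group carried a transgene or a drug treatment in the labels, and rat strain and age are not given in the sources used here. The series' text speaks of independent experiments without saying whether different animals were used, so the p-values measure the spread between these cultures.

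Each array measured 58717 non-control spots in 1 colour, of which 62.7% to 65.9% were well above background. Stromal transcripts were abundant in both groups: the type I collagen gene Col1a1 lay at 16.00 to 16.21 on Ta and at 15.97 to 16.29 on Ti (scaled log2 signal), and 15 of 16 stromal markers entered the test. Leukocyte transcripts were also present, since Ptprc, which encodes the leukocyte antigen CD45, lay at 10.42 to 11.49 on Ta and at 11.64 to 12.30 on Ti. The samples are bulk RNA, in which fewer cells of a type and less RNA per cell cannot be told apart. All arrays came from 1 slide, on which row 1 held every Ta array and 1 Ti array (replicate 1), and row 2 the other two Ti arrays. A principal component analysis over all tested genes (component 1, 67.5% of the variance) gave Ta replicate 1 a score of 6.8, between those of Ta replicates 2 and 3 (43.7 and 57.6) and those of the Ti arrays (-44.5 to -22.9).

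Probes are 60-base oligonucleotides, and 2 of the 7 genes have a pair of them. The pairs are shown because they decide how far each result was measured more than once. The first 30 of the 60 bases are printed 5′ to 3′, with positions on the rn4 build as the array files give them. Capitals mark bases that both probes of the gene share as 1 run.
Ccl6 brighter probe: cagacgtgcataagcaccctgaagctaggc
Ccl6 dimmer probe: atttacattttaccccgaaaactcctaccc
Ccl20 brighter probe: gcttagtagAAGGTTCAATATTATGTTTAA
Ccl20 dimmer probe: cgcttagtaaAAGGTTCAATATTATGTTTA
The brighter Ccl6 probe lies at chr10:71660623-71660682 and the dimmer one at chr10:71659657-71659716, both on the minus strand. Their starts are 966 bases apart and their longest common run is 6 bases, so they read separate stretches of sequence. Whether both lie in the same transcript could not be looked up. The Ccl20 probes lie at chr9:82443355-82443414 and chr9:82443354-82443413 on the plus strand. They are shifted by 1 base and differ by G9A over 59 aligned bases, counted from the 5′ end of the brighter probe, which makes them nearly the same measurement. Probes of different genes in the group share at most 8 consecutive bases.

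Promoters of 3 of the 7 genes were in the RefSeq table (GRCr8 build), each running from 250 bases before to 50 bases after the gene's start. They are shown because all 3 of these genes passed the test. Capitals mark 3 motifs searched on both strands: GGG and TTTCC with any 2 bases between them, which NF-kB binds, TGANTCA, which AP-1 binds, and the TATA element TATAA.
Ccl20 promoter, chr9:91836909-91837208, plus strand: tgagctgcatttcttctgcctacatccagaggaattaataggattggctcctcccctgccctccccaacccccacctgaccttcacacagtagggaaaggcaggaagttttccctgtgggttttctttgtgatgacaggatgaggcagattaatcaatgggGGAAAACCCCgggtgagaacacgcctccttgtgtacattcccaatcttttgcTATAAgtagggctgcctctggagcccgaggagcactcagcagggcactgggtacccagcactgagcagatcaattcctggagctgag
Ccl7 promoter, chr10:67513845-67514144, plus strand: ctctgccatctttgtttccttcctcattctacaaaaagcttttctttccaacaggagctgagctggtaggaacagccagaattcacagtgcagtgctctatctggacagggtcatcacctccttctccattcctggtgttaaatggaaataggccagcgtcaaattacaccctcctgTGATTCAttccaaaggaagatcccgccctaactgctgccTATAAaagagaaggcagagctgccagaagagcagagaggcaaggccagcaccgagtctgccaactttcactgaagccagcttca
Ccl6 promoter, chr10:68883317-68883616, minus strand: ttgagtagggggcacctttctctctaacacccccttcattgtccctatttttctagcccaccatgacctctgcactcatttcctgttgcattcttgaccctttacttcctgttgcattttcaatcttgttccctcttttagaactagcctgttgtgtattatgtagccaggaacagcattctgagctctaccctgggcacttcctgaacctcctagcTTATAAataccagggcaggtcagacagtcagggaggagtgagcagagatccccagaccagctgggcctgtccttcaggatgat
The NF-kB motif was in the Ccl20 window alone of the 3, starting 89 bases before the gene's start, and in 1.53% of 33469 promoters of that length. The AP-1 motif was in the Ccl7 window alone, 73 bases before the start, and in 7.33% of all promoters. TATAA was in all 3 windows and in 26.2% of all promoters: it began 37 bases before the start in Ccl20, 34 bases before it in Ccl7, and 33 and 32 bases before it in Ccl6, where matches on the 2 strands overlap. The motifs do not overlap one another in these windows, and a match is a description of the letters only.

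Transcripts of 5 of the 7 CC chemokines, Ccl3, Ccl4, Ccl6, Ccl7 and Ccl20, were higher on Ta than on Ti, by 1.90-fold for Ccl4 to 14.31-fold for Ccl6, and none (0 of 7) was lower. Ccl2 and Ccl5 had differences of 1.42-fold and 4.52-fold that did not pass (limma, adjusted p = 0.0646 and 0.0559). Of all genes tested, 2.66% were called higher on Ta (521 of 19616) and 4.12% in either direction. In all 7 genes every Ta array lay above every Ti array, which was so for 19.5% of all genes. At least 2-fold differences upward were seen in 5 of the 7, against 2.29% of all genes. The median log2 difference was 1.97 over the 7 genes and 0.03 over all genes. The 7 were chosen with earlier results of these data known, so these comparisons with all genes are no independent evidence. Each of the 7 was well above background on all 6 arrays, so none entered the test through 1 group alone.

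The calls depended on single arrays and on the filter. Without the filter on dim probes 0 of the 7 passed (limma adjusted p = 0.111 to 0.17), with all 7 at an unadjusted p under 0.05. In that fit 5814 of 34903 genes had an unadjusted p under 0.05 in either direction. All 7 genes passed without Ta replicate 1 and 5 passed without Ti replicate 2, but 0 passed when either Ta replicate 2 or 3, or either Ti replicate 1 or 3, was left out (limma, adjusted over all genes). Over all genes, 3210 were called without Ta replicate 1 and 1561 without Ti replicate 2, against 2 without Ti replicate 1 and 0 when Ta replicate 2, Ta replicate 3 or Ti replicate 3 was the array left out. All 7 differences had an unadjusted p under 0.05 with each array left out (limma). In either direction, 3789 of 19214 genes did so without Ta replicate 2, the fewest, and 6812 of 19356 without Ta replicate 1, the most. The sign of the 7 differences could not change, since every Ta array lay above every Ti array in each gene. Within slide row 1, where Ti replicate 1 is the sole Ti array, the differences were 0.52 for Ccl2 to 4.88 for Ccl6, and 0 passed with the row as a block.

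**Figure D1:**
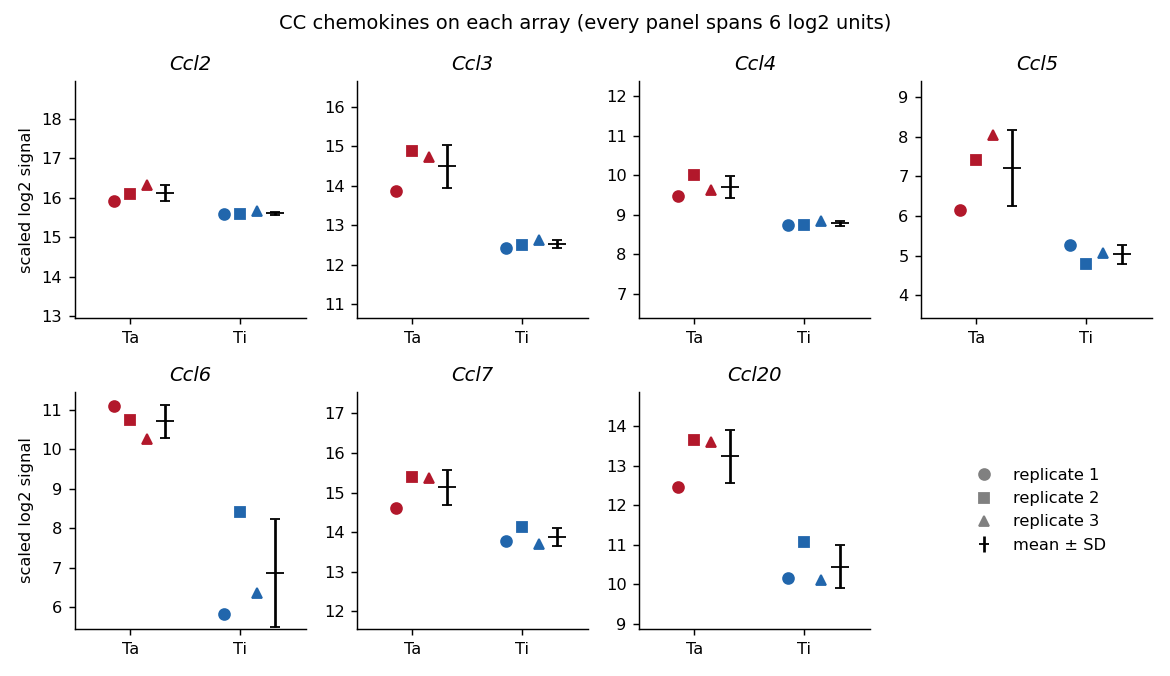
Scaled log2 signal of each CC chemokine on the 3 Ta arrays (red) and 3 Ti arrays (blue), with replicates as symbols and mean ± SD beside them; every panel spans the same number of log2 units. All Ta arrays lie above all Ti arrays in each panel, by the smallest gap in Ccl2 (0.27) and the widest in Ccl6 (1.85).

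Of the monocyte attractants, Ccl7 was higher on Ta and Ccl2 narrowly missed the threshold. The Ccl2 probe gave 61810, 69910 and 81950 on Ta replicates 1, 2 and 3, against 49310, 48890 and 51390 on Ti replicates 1, 2 and 3 (scaled signal, linear scale, mean of up to 10 spots). The Ti arrays lay within 0.07 of each other on the log2 scale, and the lowest Ta array stood 0.27 above the highest of them. The log2 difference was 0.51 ± 0.12 (SE, n = 3 per group, limma adjusted p = 0.0646), with a 95% interval of the fold from 1.16 to 1.73. Larger differences were found in 9.49% of all genes. No spot of any array (0) was saturated, those of Ccl2 included.

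Ccl7, the neighbour of Ccl2 on chromosome 10, gave 25240, 42990 and 42730 on Ta, against 13970, 18070 and 13400 on Ti. Ta replicate 1 was the low Ta array and Ti replicate 2 the high Ti array, and the gap between the groups was 0.48 on the log2 scale. Ccl7 was higher on Ta by 1.26 ± 0.24 (SE, n = 3 per group, limma adjusted p = 0.0488), a 2.39-fold difference with an interval from 1.59 to 3.59. Its call was the nearest to the threshold of the 5 and was lost under median scaling, where the adjusted p was 0.0503.

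Ccl3 and Ccl4, which macrophages release and whose genes stand side by side on the chromosome, were both higher on Ta. Ccl3 gave 14940, 30020 and 27310 on Ta, against 5521, 5840 and 6323 on Ti. The Ti arrays were tightly grouped (range 0.20 on the log2 scale) and Ta replicate 1 was again low among the Ta arrays. The log2 difference was 1.97 ± 0.27 (SE, n = 3 per group, limma adjusted p = 0.0396), a fold of 3.92 with an interval from 2.50 to 6.13. Ccl4, read by 1 spot per array, gave 707.7, 1039 and 798.9 on Ta, against 429.5, 431 and 462.3 on Ti. The Ti arrays again lay close together, and the difference of 0.93 ± 0.15 (adjusted p = 0.0438) was a fold of 1.90, interval 1.47 to 2.45. The intervals of the Ccl3 and Ccl4 folds do not overlap, and the difference between them was not tested itself.

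Ccl5, a product of T cells, macrophages and stromal cells, gave 71.31, 171.7 and 264.1 on Ta, against 38.45, 27.42 and 33.26 on Ti. No value overlapped between the groups, but the Ta arrays spanned 1.89 on the log2 scale, the widest spread of any of the 7 genes on Ta. The log2 difference was 2.18 ± 0.47 (SE, n = 3 per group, limma adjusted p = 0.0559), and its interval ran from 2.06-fold to 9.89-fold. With normexp background correction, which here adds an offset of 50 to each signal, it was 1.20 and passed (adjusted p = 0.0312).

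Ccl6 had the largest difference of the group, exceeded by 0.03% of all genes. The brighter probe gave 2185, 1725 and 1237 on Ta, against 56.65, 342.8 and 82.01 on Ti. The dimmer probe gave 813.1, 607.9 and 444 on Ta, against 21.79, 115.3 and 24.96 on Ti. Both probes ordered the arrays the same way, with Ta replicate 1 highest of the Ta arrays and Ti replicate 2 highest of the Ti arrays. The log2 difference was 3.84 ± 0.67 (SE, n = 3 per group, limma adjusted p = 0.0453) for the brighter probe, a fold of 14.31 with an interval from 4.65 to 44.00. The dimmer probe gave 3.92 ± 0.65 when every probe was a feature (limma adjusted p = 0.0432), a fit that called 4.31% of probes. The brighter probe exceeded the dimmer one by 2.60-fold to 3.29-fold on the 6 arrays.

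The spread of Ccl6 was larger between arrays than between spots of an array. Each probe is printed 10 times on an array, and the SD over the spots of 1 array was 0.035 to 0.131 for the brighter probe and 0.067 to 0.26 for the dimmer probe (log2). The SD between the arrays of the brighter probe was 0.41 on Ta and 1.37 on Ti. Ti replicate 2 lay 2.60 above Ti replicate 1 on the log2 scale. Without Ti replicate 2 the difference was 4.62 (limma adjusted p = 0.0239), and without Ti replicate 1 it was 3.32 (adjusted p = 0.126).

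**Figure D2:**
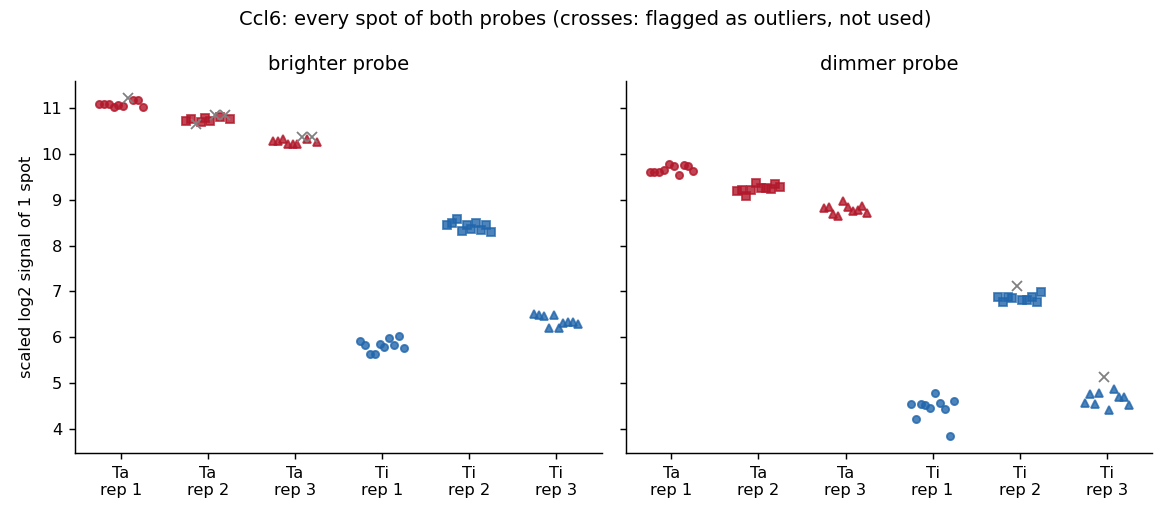
Scaled log2 signal of every Ccl6 spot on the 3 Ta arrays (red) and 3 Ti arrays (blue), with the brighter probe on the left and the dimmer probe on the right; grey crosses are spots the scanner software marked as outliers. The spots of an array cluster tightly, and Ti replicate 2 stands 2.60 above Ti replicate 1 for the brighter probe.

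Ccl20, the ligand of Ccr6, gave 5647, 12780 and 12470 on Ta, against 1143, 2155 and 1096 on Ti. Ta replicate 1 was the low Ta array and Ti replicate 2 the high Ti array, with 1.39 between them on the log2 scale. The log2 difference was 2.79 ± 0.41 (SE, n = 3 per group, limma adjusted p = 0.0406), a fold of 6.93 with an interval from 3.50 to 13.75. The overlapping second probe gave 3792, 8611 and 8530 on Ta, against 762.7, 1373 and 758.3 on Ti, and a difference of 2.82 ± 0.39. The ratio of the 2 probes stayed between 1.44 and 1.57 on the 6 arrays. Only 0.18% of all genes had a larger difference than Ccl20.

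The 7 genes did not share 1 profile over the arrays. Ta replicate 1 was the lowest of the Ta arrays in 6 of them, all but Ccl6, where it was the highest (42.1% and 35.8% of all genes did the same). Ti replicate 2 was the highest of the Ti arrays in 3, namely Ccl6, Ccl7 and Ccl20 (36.9% of all genes did the same). Measured as the root mean square difference between log2 values centred on each gene's mean over the 6 arrays, Ccl2 and Ccl4 were the nearest pair (0.28) and Ccl2 and Ccl6 the farthest (1.88). Ccl6 was at least 0.93 from each of the other genes, its nearest being Ccl20.

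By the same measure, the 3 genes nearest to each chemokine over the 6 arrays were taken from all tested genes. Those nearest to Ccl6 were Cxcl3, Lcn2 and Il1a, at 0.60, 0.61 and 0.69. Those nearest to Ccl20 were Galnt14, Sstr4 and the chemokine gene Cxcl1, at 0.08, 0.11 and 0.14, and those nearest to Ccl3 were Adgb, Slc17a6 and Srgn, at 0.14, 0.15 and 0.16. Igsf9b, Tomm34 and Ptch1 stood within 0.04 of Ccl2, and Angpt1, Ccnjl and Slc25a37 within 0.06 of Ccl7. Ccl4 was nearest to Gch1, Slbpl and Plscr1 (0.08 to 0.09), and Ccl5 to Mmp10, Pvalb and Spmip7 (0.22 to 0.27). Small values can go with small differences between the groups, since a gene that varies little lies near many others. Ccl20 was an exception, with a difference of 2.79 and a nearest gene at 0.08.

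**Figure D3:**
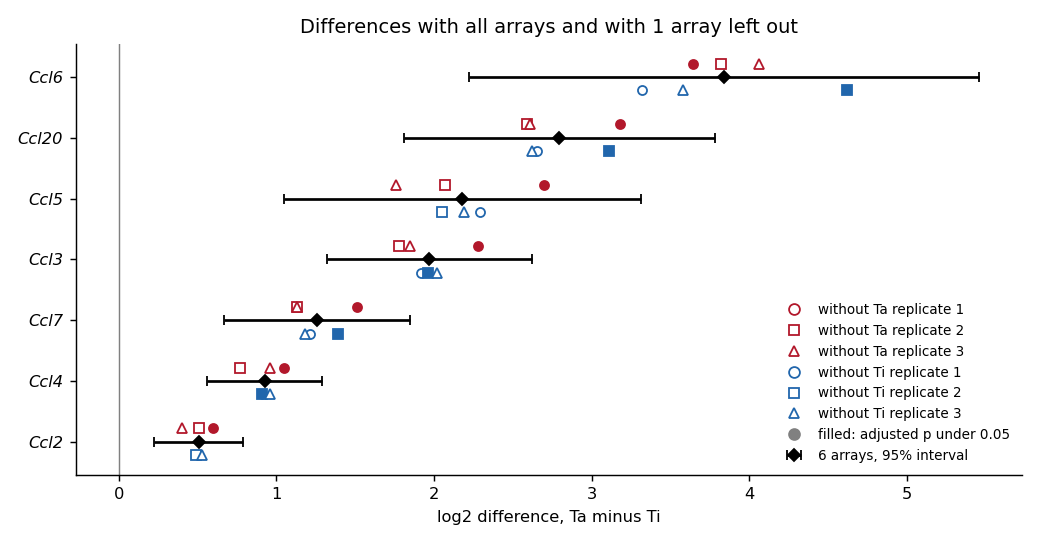
Log2 difference, Ta minus Ti, of each CC chemokine with all 6 arrays (black diamond, 95% interval) and with 1 array left out (red, a Ta array; blue, a Ti array); filled symbols have a limma adjusted p under 0.05. All points lie above 0, from 0.40 for Ccl2 to 4.62 for Ccl6, and filled symbols appear for all 7 genes without Ta replicate 1 and for 5 without Ti replicate 2.

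All but Ccl20 lie on chromosome 10 in 2 runs of neighbouring CC chemokine genes (RefSeq order, GRCr8). In the first run the order is Ccl2, Ccl7, Ccl11, Ccl12 and Ccl1. Ccl11, an attractant of eosinophils, had 11.55, 9.94 and 8.49 on Ta, against 10.10, 10.46 and 10.01 on Ti (scaled log2 signal), and its groups overlapped. Its difference was -0.19 (adjusted p = 0.88), that of Ccl12, a relative of Ccl2, was -1.56 (adjusted p = 0.0999), and that of Ccl1 was -0.07 (adjusted p = 0.932, limma). In the second run, Ccl5, Ccl9, Ccl6, Ccl3 and Ccl4, the gene Ccl9 had a difference of -0.25 (adjusted p = 0.837) between Ccl5 and Ccl6. The test of a difference between neighbours was not made.

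**Figure D4:**
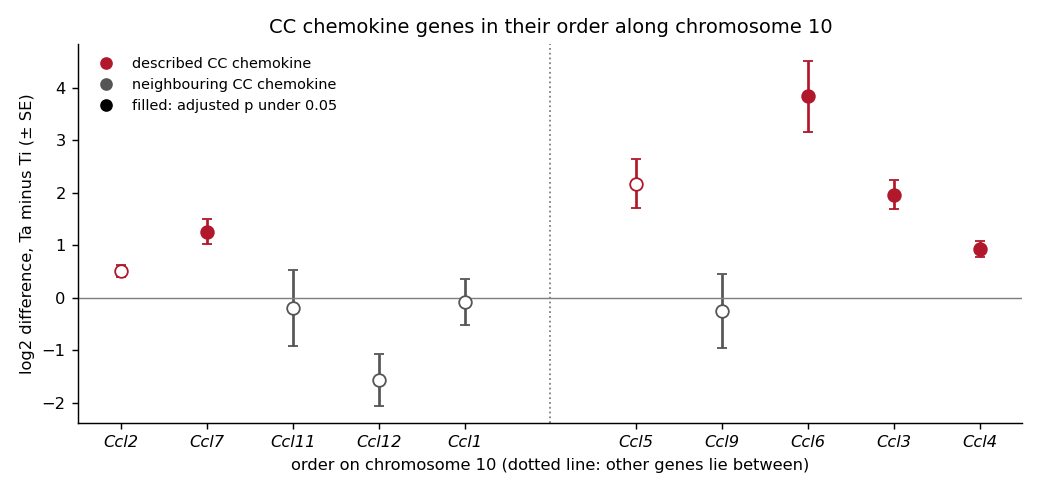
Log2 difference, Ta minus Ti (± SE, n = 3 arrays per group), of the CC chemokine genes of chromosome 10 in their order along it; red, the CC chemokines described here; grey, the other CC chemokine genes of the same runs; filled, limma adjusted p under 0.05. Ccl11, Ccl12, Ccl1 and Ccl9 lie between -1.56 and -0.07, and the red points between 0.51 and 3.84.

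Of the 13 other CC chemokine genes on the array, 8 entered the test and 0 passed in either direction (limma), with a median of -0.04. At an unadjusted p under 0.05, 1 of the 8 was lower (Ccl12) and 0 were higher. Besides the neighbours above, Ccl17 had 1.01 (adjusted p = 0.222), and Ccl22, Ccl24 and Ccl27 had -0.02 to 0.15. By that rule all 7 genes described here were higher on Ta, against 16.8% of all genes. The 7 were chosen with earlier results of these data known, so their contrast with the other CC chemokines is no independent evidence.

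No receptor gene passed the test. Of 11 CC chemokine receptor genes, 5 entered the limma test and 0 passed (2 higher and 1 lower at an unadjusted p under 0.05), and Ccr2, Ccr3, Ccr4, Ccr7 and Ccr8 were near background throughout (well above it on 0 arrays). Ccr1, a receptor of Ccl3 and Ccl5, had a difference of -0.53 (adjusted p = 0.289), and Ccr6, the receptor of Ccl20, had -0.69 (adjusted p = 0.113) and was well above background on 1 Ta array and 2 Ti arrays. Ccr1l1 had 1.51 (adjusted p = 0.111) and Ccr9 had 0.22 (adjusted p = 0.145). Ccr10 was well above background on 1 array and was not tested. Among 5 atypical receptors, which take up chemokines without signalling through G proteins, 3 were tested: Ackr3 had 0.49 (adjusted p = 0.0698), Ackr4 0.05 and Ccrl2 -0.34. At an unadjusted p under 0.05, 1 of these 3 was higher, Ackr3, and 0 were lower.

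The list counts that follow stand against 2.66% of all genes called higher on Ta and 1.47% called lower. A list of cytokine, receptor and adaptor genes of pathways that induce CC chemokines included inhibitors, among them Il1rn and Il1r2. Of its 22 tested genes, 3 were higher on Ta and 0 lower, with a median of 0.04. Il1a, which encodes interleukin 1 alpha, was higher by 3.03 ± 0.46 (limma adjusted p = 0.0407), Il6 by 2.14 ± 0.37 (adjusted p = 0.045) and the bacterial lipoprotein receptor gene Tlr2 by 1.16 ± 0.20 (adjusted p = 0.0453; SE, n = 3 per group). At an unadjusted p under 0.05, 6 of the 22 were higher and 1 was lower, Tnf, with a difference of -0.60 (limma adjusted p = 0.143). Ifng and Il17a were well above background on 0 arrays. Of 19 NF-kB genes, 2 were higher and 0 lower: the inhibitor gene Nfkbia by 1.05 (adjusted p = 0.0488) and Birc3 by 1.12 (adjusted p = 0.0496), both of them NF-kB targets. The subunit genes Rela, Nfkb1, Nfkb2, Rel and Relb had -0.09, 0.15, 0.03, -0.25 and 0.35, the last with an adjusted p of 0.0864 (limma). At an unadjusted p under 0.05, 6 of the 19 were higher, against 16.8% of all genes, and 0 were lower.

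Among 11 genes that govern the decay of cytokine mRNA, Zc3h12a, an endonuclease of inflammatory transcripts, was higher by 1.30 (limma adjusted p = 0.0396) and 0 were lower. The other Zc3h12a probe had 0.62 when every probe was a feature (limma adjusted p = 0.441). Among 13 genes for proteases that process chemokines and for heparan sulfate carriers, Sdc2, a cell-surface proteoglycan, fell by 0.80 (adjusted p = 0.0453) and 0 were higher. At an unadjusted p under 0.05, 4 of the 13 were lower and 2 higher. The 2 were Mmp3 with 1.74 and Mmp13 with 1.40 (limma adjusted p = 0.0587 and 0.0999). Of 12 chemokines of other classes, 7 were higher and 0 lower, with a median of 1.07. The neutrophil attractants Cxcl2, Cxcl3, Cxcl6 and Cxcl1 had the largest of these differences, at 5.03, 3.57, 3.07 and 2.80 (adjusted p = 0.0396 to 0.0453). Each of these 4 was highest of the Ti arrays on Ti replicate 2, as were Ccl6, Ccl7 and Ccl20 and 36.9% of all genes. These lists were chosen with earlier results of the same arrays known, so their counts are no independent evidence.

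Markers of other cells were compared between the same groups. Of 23 tested macrophage and monocyte markers 0 passed in either direction and 3 were above 0, with a median of -0.76 (limma). At an unadjusted p under 0.05, 11 of the 23 were lower on Ta and 2 higher. Their summed scaled signal was 85000 to 221000 on Ta, against 237000 to 310000 on Ti, with Ta replicate 1 the highest of the Ta arrays. Bright genes weigh most in this sum, among them Lyz2, with a difference of -2.38 for the probe used. The other Lyz2 probes had -2.85 and -0.51 when every probe was a feature. Of 12 neutrophil markers, 5 were tested and 2 were higher on Ta, S100a8 by 2.95 and Camp by 1.68 (limma adjusted p = 0.0447 and 0.0453). Mpo had 1.66, Fpr1 0.00 and Csf3r -0.88, and the median of the 5 was 1.66. Their summed signal was 461 to 762 on Ta, against 267 to 294 on Ti, and Elane, Ngp, Ltf and Cxcr2 were well above background on 0 arrays. The part of macrophages and neutrophils in the chemokine differences was not tested.

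Of 7 tested mast cell markers 4 were lower on Ta and 0 higher, with a median of -1.93 (limma). Kit, the stem cell factor receptor, fell by 2.56, Mcpt8 fell by 2.16 and Cpa3 fell by 1.93 (limma adjusted p = 0.0488, 0.0428 and 0.0407), with Cpa3 well above background on 1 of 3 Ta arrays. Cma1 did not rise well above background on Ta (0 of 3 arrays) and was at least 3.50-fold lower on Ta (means 1.63 on Ta and 5.35 on Ti, adjusted p = 0.0353). It entered the test through its Ti arrays alone, so its call supports nothing here. Cpa3 would not have entered without its Ti arrays, so its call supports nothing here either, though both count among the 4. Among the others, Hdc had 0.73 (adjusted p = 0.0564) with every Ta array above every Ti array, Gata2 -0.01 and Fcer1a -0.25. Other probes differed when every probe was a feature. The other Hdc probe was higher on Ta by 0.86 (limma adjusted p = 0.0392), and the other Mcpt8 probe had -0.41 (adjusted p = 0.585). The summed mast cell signal was 840 to 926 on Ta, against 1330 to 2180 on Ti. Among 6 tested T, B and NK cell markers, Cd2, well above background on 0 of 3 Ti arrays, was at least 2.73-fold higher on Ta (means 5.09 on Ta and 3.25 on Ti, adjusted p = 0.0419) and 0 were lower. Cd2 entered the test through its Ta arrays alone, so its call supports nothing here either. Only 2 of the 6 had a difference above 0, and the median was -0.61: Cd8a had -2.45, Gzmb -1.78 and Cd4 -0.91, and at an unadjusted p under 0.05 there were 2 higher and 2 lower. The sums of this list were 1050 to 3000 on Ta and 2720 to 3280 on Ti. They came mostly from Cd4, which lay at 9.67 to 11.43 on Ta and at 11.26 to 11.51 on Ti (scaled log2 signal). Cd3e, Cd3g, Cd247 and Ms4a1 were well above background on 0 arrays. Of 6 osteoclast markers 0 passed (4 lower at an unadjusted p under 0.05), with sums of 9710 to 13600 on Ta and 14600 to 17900 on Ti.

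Of 15 tested stromal markers 2 were higher on Ta, Cxcl12, a niche chemokine, by 1.06 and Thy1 by 0.67 (limma adjusted p = 0.0453 and 0.0439), and 0 were lower. The median was 0.12, and at an unadjusted p under 0.05 there were 5 higher and 2 lower. The other Thy1 probe had 0.36 when every probe was a feature (limma adjusted p = 0.166). Cxcl12 was also counted above among the chemokines of other classes. Eng had -0.37 (adjusted p = 0.0523) and Twist1 -0.20, each with every Ta array below every Ti array. The summed signal of the list was 260000 to 304000 on Ta, against 226000 to 235000 on Ti. Bright genes weigh most in such a sum: Cxcl12 had 1.06 and Pdpn 0.63, but Col1a1 had -0.07 and Col1a2 -0.15. Of 13 tested immediate early and heat shock genes, whose transcripts can change while cells are handled, 2 were lower and 0 higher: Fosb fell by 1.16 and Egr1 fell by 0.98 (adjusted p = 0.0396 and 0.0453). Their summed signal was 19300 to 21400 on Ta, against 24600 to 28200 on Ti. The part of these cell types and of handling in the chemokine differences was not tested.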

How the data were processed

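The deposited values are linear 1-colour spot intensities. The processed signal is background-subtracted per the file headers, and Agilent Feature Extraction 12.0 is given per the submitters' processing notes. Values of Ta replicate 2 and of Ti replicate 3 were deposited with 3 digits or fewer.

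Log2 processed signals were reduced by each array's 75th percentile, and the mean percentile was added back. Spots flagged as outliers were left out and spots of a probe were averaged. Probes well above background on at least 3 of 6 arrays were kept (25782 of 45598), with the brightest probe per gene (19616 genes). Of the probes, 30650 were named through the RefSeq table (GRCr8). Groups were compared with limma 3.58.1 in R 4.3.3 (two-sided, Benjamini-Hochberg over all genes, threshold 0.05). Log2 differences are Ta minus Ti, and SE is limma's moderated standard error. Where 0 arrays of a group measured a probe well above background, its fold is a bound against the lowest signal that was. The test was checked on simulated data.

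Named genes are the 7 chemokines, their receptors (some genes of the lists are not reported here), up to 4 genes past the test per other list and the 3 nearest genes per chemokine. Neighbouring and other genes named with no call were chosen after their values were seen. The members and lists were chosen with earlier results of these data known. Alternatives were other scalings, background correction, filters, blocks, weights, probe rules and leaving out each array.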

Additional observations from a re-analysis of the deposited data

How the results depend on the processing

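All 133 values of the 7 chemokines under the alternatives and leave-one-array-out fits kept the sign of the difference, and 36 lost and 9 gained the call. With 1 array left out the sign could not change, since every Ta array lay above every Ti array in each gene. The main counts were 809 genes and 5 of 7 chemokines. Normexp background correction gave 2660 genes, trend and robust settings 2106, array weights 10179 and no filter on dim probes 0 (5814 at an unadjusted p under 0.05, limma), with 0 chemokines for no filter. A block for slide row leaves Ti replicate 1 as the sole comparator of the Ta arrays and gave 0 genes (3837 at an unadjusted p under 0.05) and 0 chemokines, with log2 differences of 0.52 for Ccl2 to 4.88 for Ccl6. The replicate number as a block gave 8 genes and 0 chemokines. The pairing is only a shared number, since deviations of same-numbered arrays correlated at 0.06, 0.13 and -0.18. Leaving out 1 array gave 0 to 3210 genes and 0 to 7 chemokines. The strict filter called 6 chemokines, Ccl5 included. The causes were not tested. With 3 arrays per group, their number limits the precision, and Ccl4 and Ccl20 rest on 1 spot per probe and array.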
